A study of Homo sapiens with 6 samples.

Results

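Translation initiation factor mRNAs were followed in 2 kinds of data from HEK293T, a cell line of human embryonic kidney origin with the SV40 large T antigen. Their levels were measured by mRNA-seq, and the places where the RNA-binding protein LARP1 touches them were mapped by PAR-CLIP, in which labeled RNA is crosslinked to the protein by ultraviolet light. The members were chosen by name. They are the NM and XM transcripts whose gene name starts with EIF1 to EIF6, without the EIF2AK kinases and the EIF4EBP repressors, which gave 93 transcripts of 51 genes out of 38438 transcripts in the table and 16972 named mRNA genes. The name rule also caught EIF2C1 to EIF2C4, older symbols of the Argonaute proteins of small RNA silencing, and EIF4A3, the helicase of the exon junction complex. It left out 8 noncoding RNAs that carry the name of an initiation factor gene or pseudogene.

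All samples were of the same line, cultured in medium with fetal bovine serum, and the labels name no deletion or transgene in any sample. Growing conditions are untreated cells, and mTOR-inactive conditions are cells in which mTOR kinase was inhibited by PP242 at 2.5 µM, for a time that is not given in the labels. The mRNA-seq data comprised 2 libraries per condition, for which no 4-thiouridine labeling is recorded here. The PAR-CLIP data comprised 1 library per condition, from cells labeled with 100 µM 4-thiouridine for 14 hr and irradiated with 150 mJ/cm2, so differences between conditions in those data were not replicated and have no p-value. Nothing in the labels says that the mRNA-seq replicates came from separate cultures, so p-values measure the spread between these libraries, which may be technical. Levels are in RPKM, reads scaled to the length of the transcript and to the mapped reads of the library. RPKM hides the number of reads, but low values move in steps of whole reads, and by these steps the libraries were of similar depth, growing replicate 2 at 1.06 times growing replicate 1, and the mTOR-inactive libraries at 1.04 and 1.06 times it. Among markers of the line, NEFM, a neurofilament subunit, was listed at 15.7 to 18.2 RPKM for its most abundant transcript, while PAX2, a renal transcription factor, did not exceed 0.136 RPKM. ALB, a liver marker, and PTPRC, a leukocyte marker, had means of 0.0356 and 0.00648 RPKM.

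Initiation begins when eIF4F, made of the cap-binding protein eIF4E, the scaffold eIF4G and the RNA helicase eIF4A, is assembled at the cap of an mRNA. The small ribosomal subunit, carrying eIF1, eIF1A, eIF3, eIF5 and the initiator tRNA bound to eIF2, is recruited there and scans to the start codon, and eIF5B then promotes joining of the large subunit. mTOR acts on this pathway through the 4E-BP proteins, which compete with eIF4G for eIF4E, and through mRNAs with a terminal oligopyrimidine (TOP) sequence. This is a C at the cap followed by an uninterrupted run of C and U. LARP1 has been reported to bind it in vitro. The paper proposes that in cells LARP1 is not a true TOP-binding protein and instead binds pyrimidine-rich stretches near the 3’ end of 5’UTRs. EIF3E, EIF3F, EIF3H and EIF4B are textbook examples of TOP mRNAs among the initiation factors.

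Initiation factor mRNAs covered a wide range of levels. Taking the most abundant transcript of each gene, averaged over the 4 libraries, the median was 46.3 RPKM, against 2.86 RPKM over all named mRNA genes. In total, 25 of the 51 genes had at least 50 RPKM, 14 had at least 100 RPKM and 11 had less than 10 RPKM. Only EIF4E1B, an oocyte form of the cap-binding protein, was below 1 RPKM, with 0.0307 and 0.0290 RPKM in the growing libraries and 0 in both mTOR-inactive libraries. It was the member that was not tested for a change.

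**Figure D1:**
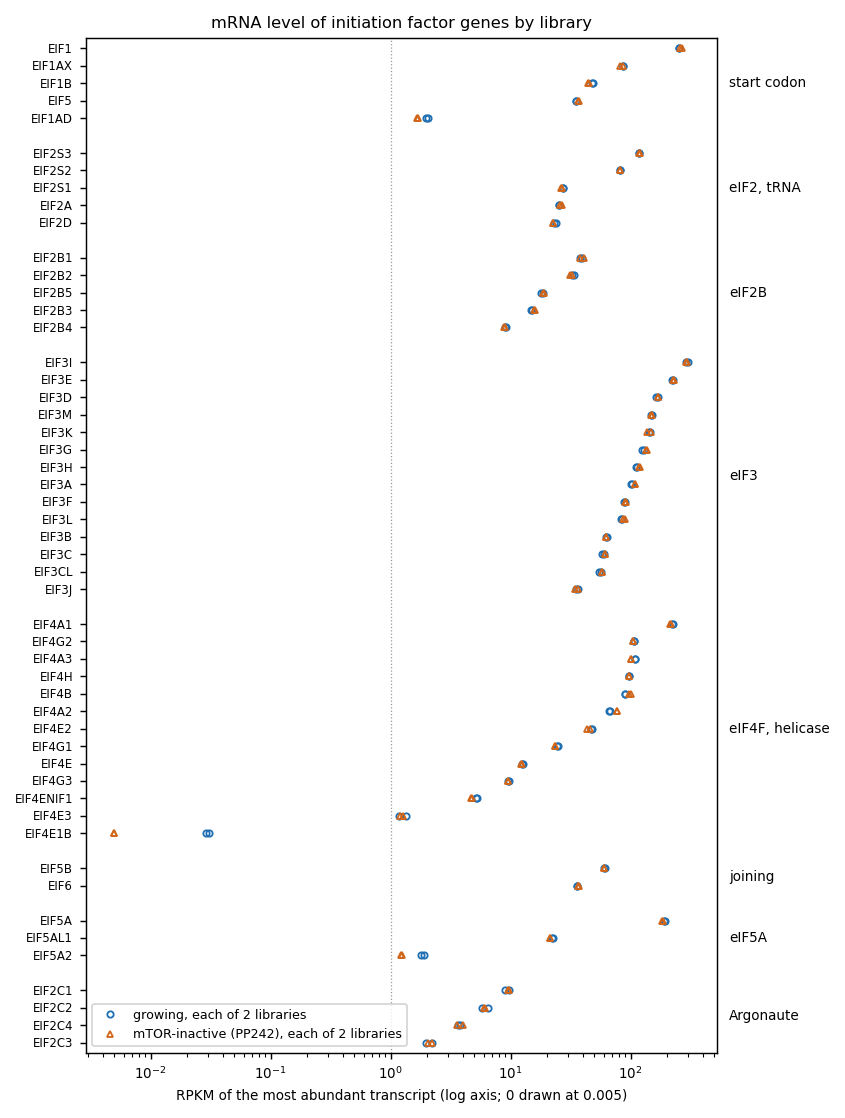
RPKM (x axis, log scale) of the most abundant transcript of each of the 51 genes (rows, grouped by role) in each mRNA-seq library, with circles for the 2 growing and triangles for the 2 mTOR-inactive libraries. The levels span from under 1 RPKM for EIF4E1B to 294 RPKM for EIF3I, and the 4 libraries lie close together for nearly every gene.

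The levels ordered the members differently within each role. Among the genes listed under start codon selection, EIF1, which guards the fidelity of start site choice, was highest with a mean of 259 RPKM. EIF1AD, which encodes a protein with an eIF1A-like domain, was lowest with 1.83 RPKM. Among the genes of initiator tRNA delivery, the range ran from 118 RPKM for EIF2S3, the gamma subunit of eIF2, to 23.1 RPKM for EIF2D. The exchange factor eIF2B, which reloads eIF2 with GTP, was encoded by mRNAs of 39.0 RPKM for EIF2B1 down to 8.96 RPKM for EIF2B4. All 14 eIF3 genes lay between 35.6 RPKM for EIF3J, a loosely attached subunit, and 294 RPKM for EIF3I. In the eIF4F group EIF4A1, the main eIF4A helicase, was highest with 220 RPKM. EIF5B, the GTPase of subunit joining, had 60.3 RPKM, and EIF6, which keeps free large subunits from joining, had 36.3 RPKM. The eIF5A group, which acts mainly in elongation, held EIF5A with 189 RPKM and its paralog EIF5A2 with 1.54 RPKM. The Argonaute mRNAs were low throughout, from 9.50 RPKM for EIF2C1 to 2.12 RPKM for EIF2C3.

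Changes after PP242 were small. Each transcript with a mean of at least 1 RPKM was tested with limma on log2(RPKM + 1), a scale on which the fold change of low transcripts is understated, with Benjamini-Hochberg adjustment over all 21014 transcripts tested and a threshold of 0.05. Of the 92 member transcripts tested, 2 were higher and 8 were lower, where the shares over all transcripts were 3.48% higher and 6.45% lower. When the libraries were first scaled to the same median, 2 member transcripts were higher and 3 were lower, and without a filter on low values 0 passed the threshold, with 31 at an unadjusted p under 0.05. The median log2 change of the member transcripts was −0.01, against −0.0013 over all transcripts, a difference below the pooled SD of 0.019 between the library medians of the members. Both mTOR-inactive libraries lay above both growing libraries for 23 member transcripts, where the share over all transcripts was 28.5%, and below them for 39, where it was 30.0%. These counts treat isoforms as separate, although isoforms of a gene share most of their reads.

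The members that rose were EIF4A2 and EIF4B, which work together as a helicase and its cofactor. EIF4A2 (NM_001967.3), the paralog of EIF4A1, had 66.3 and 67.0 RPKM in the growing libraries and 76.7 and 77.3 RPKM in the mTOR-inactive libraries. Its libraries did not overlap between conditions, and the log2 change was 0.20 ± 0.02 (SE, n = 2 libraries per condition; limma, adjusted p = 0.00616). EIF4B (NM_001417.4), which stimulates the helicase, had 89.8 and 90.5 RPKM under growing and 97.4 and 100.7 RPKM under mTOR-inactive conditions. It did not overlap either, with a log2 change of 0.13 ± 0.03 (SE, n = 2 per condition; limma, adjusted p = 0.0290). EIF4A2 lies at chr3:186500994-186507686 and EIF4B at chr12:53400066-53435999, both on the plus strand of GRCh37. Without growing replicate 1, growing replicate 2 or mTOR-inactive replicate 2 the call for EIF4B was lost, while that for EIF4A2 held without any single library. In a fit without the mean trend of limma the call for EIF4B was also lost, and that for EIF4A2 held.

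The other EIF4A paralogs did not rise. EIF4A1 (NM_001416.3) had 225 and 224 RPKM in the growing libraries and 217 and 214 RPKM in the mTOR-inactive libraries, so both treated libraries were lower, with a log2 change of −0.06 ± 0.02 that did not pass the threshold (SE, n = 2 per condition; limma, adjusted p = 0.134). EIF4A3 (NM_014740.3) had 109.6 and 108.0 RPKM under growing and 100.0 and 101.1 RPKM under mTOR-inactive conditions. It fell, with a log2 change of −0.11 ± 0.02 (SE, n = 2 per condition; limma, adjusted p = 0.0326). This call was lost with scaled libraries, in a fit without the mean trend of limma, and without any one of the 4 libraries. Over the whole group listed with eIF4F, 2 of 32 transcripts were higher and 1, that of EIF4A3, was lower. The shares over all transcripts were 3.48% higher and 6.45% lower. The 6 tested genes of cap binding and scaffolding, EIF4E, EIF4E2, EIF4E3, EIF4G1, EIF4G2 and EIF4G3, gave no transcript past the threshold.

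Among the members tested, the largest fall was that of EIF5A2 (NM_020390.5), with 1.79 and 1.88 RPKM in the growing libraries and 1.23 and 1.24 RPKM in the mTOR-inactive libraries. The groups did not overlap, and the log2 change was −0.35 ± 0.04 (SE, n = 2 per condition; limma, adjusted p = 0.00644). The call held without any single library. The other transcripts of the group, those of EIF5A and of the near-identical EIF5AL1, had log2 changes of −0.06 to −0.07, all of them below 0 and none past the threshold. EIF5A and EIF5AL1 share reads, which the authors divided evenly between matching loci, so their values are not independent.

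In the group listed under start codon selection, 6 of 12 transcripts were lower and 0 were higher. The shares over all transcripts were 6.45% lower and 3.48% higher. Of the 6, 5 were isoforms of EIF1AD, whose part in start codon selection was not tested, and the other was EIF1B. With libraries scaled to the same median, 2 of the 12 were lower. The most abundant isoform of EIF1AD (NM_001242481.1), which was not called with scaled libraries, had 2.04 and 1.96 RPKM under growing and 1.68 and 1.66 RPKM under mTOR-inactive conditions. The called isoforms of EIF1AD had log2 changes of −0.16 to −0.18 with limma adjusted p-values of 0.0356 to 0.0496, close to the threshold, and none was called when any single library was left out. EIF1B (NM_005875.2), a paralog of EIF1, had 47.6 and 48.9 RPKM under growing and 44.0 and 44.7 RPKM under mTOR-inactive conditions. It fell by a log2 change of −0.12 ± 0.03 (SE, n = 2 per condition; limma, adjusted p = 0.0439). This call too was lost with scaled libraries, in a fit without the mean trend of limma, and without any one library. EIF1 itself had 255 and 254 RPKM under growing and 260 and 268 RPKM under mTOR-inactive conditions, with a limma adjusted p of 0.205.

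**Figure D2:**
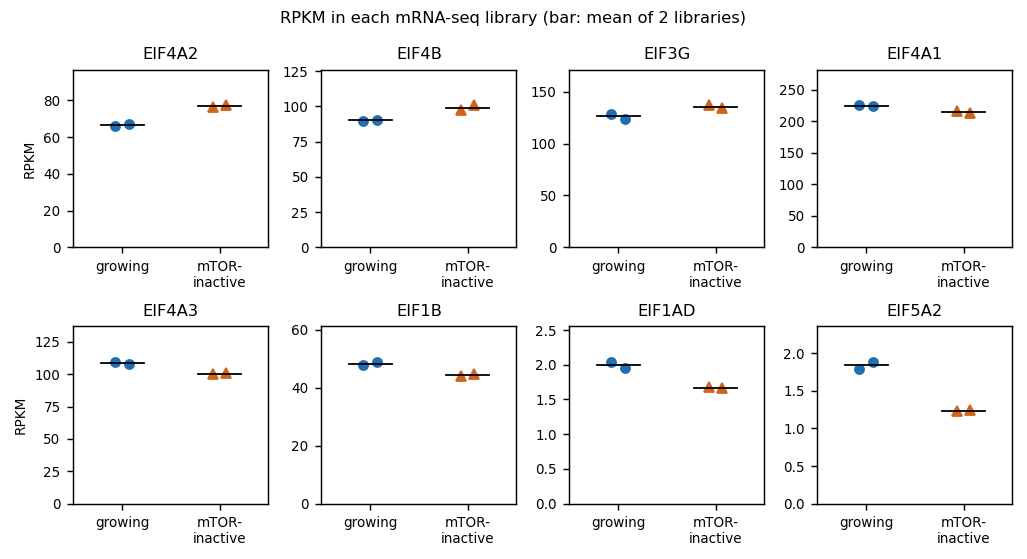
RPKM (y axis, starting at 0) of 8 transcripts in each mRNA-seq library under growing (circles) and mTOR-inactive (triangles) conditions, with a bar at the mean of the 2 libraries of each condition. EIF4A2 and EIF4B are higher and EIF4A3, EIF1B, EIF1AD and EIF5A2 are lower after PP242, and the distance between conditions is small beside the level for all but EIF5A2 and EIF1AD.

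The eIF3 subunits form the scaffold that binds the small ribosomal subunit, and their mRNAs showed no call. Of the 18 transcripts tested 13 had a log2 change above 0 and 5 below. The median was 0.05, the range was −0.02 to 0.10, and 0 passed the threshold. The shares past it over all transcripts were 3.48% higher and 6.45% lower. The libraries scaled to the same median gave 16 changes above 0 and 2 below 0. The largest change was that of EIF3G (NM_003755.3), with 128.5 and 124.1 RPKM under growing and 136.8 and 134.5 RPKM under mTOR-inactive conditions and a log2 change of 0.10 ± 0.03 (SE, n = 2 per condition; limma, adjusted p = 0.0632). With a minimum of 5 RPKM its adjusted p was 0.0416. EIF3A, the largest subunit, had 100.6 and 103.7 RPKM under growing and 108.3 and 108.8 RPKM under mTOR-inactive conditions, with a limma adjusted p of 0.0808. The groups of both did not overlap. EIF3I, the most abundant member, had 301 and 292 RPKM under growing and 294 and 289 RPKM under mTOR-inactive conditions, and its groups overlapped.

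The factors that deliver and recycle the initiator tRNA, and those of subunit joining, also gave no call. The 6 transcripts of the eIF2 group had log2 changes of −0.06 to 0.06, the 8 of eIF2B of −0.05 to 0.09, the 4 of subunit joining of −0.01 to 0.03, and the 6 of the Argonautes of −0.0046 to 0.05. The highest of these was an isoform of EIF2B3 (NM_001166588.1), with 14.6 and 14.4 RPKM under growing and 15.2 and 15.9 RPKM under mTOR-inactive conditions. Its log2 change was 0.09 ± 0.03 (SE, n = 2 per condition; limma, adjusted p = 0.136). For any one of these transcripts taken alone, the smallest two-sided p of an exact permutation test between 2 and 2 libraries is 0.333.

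**Figure D3:**
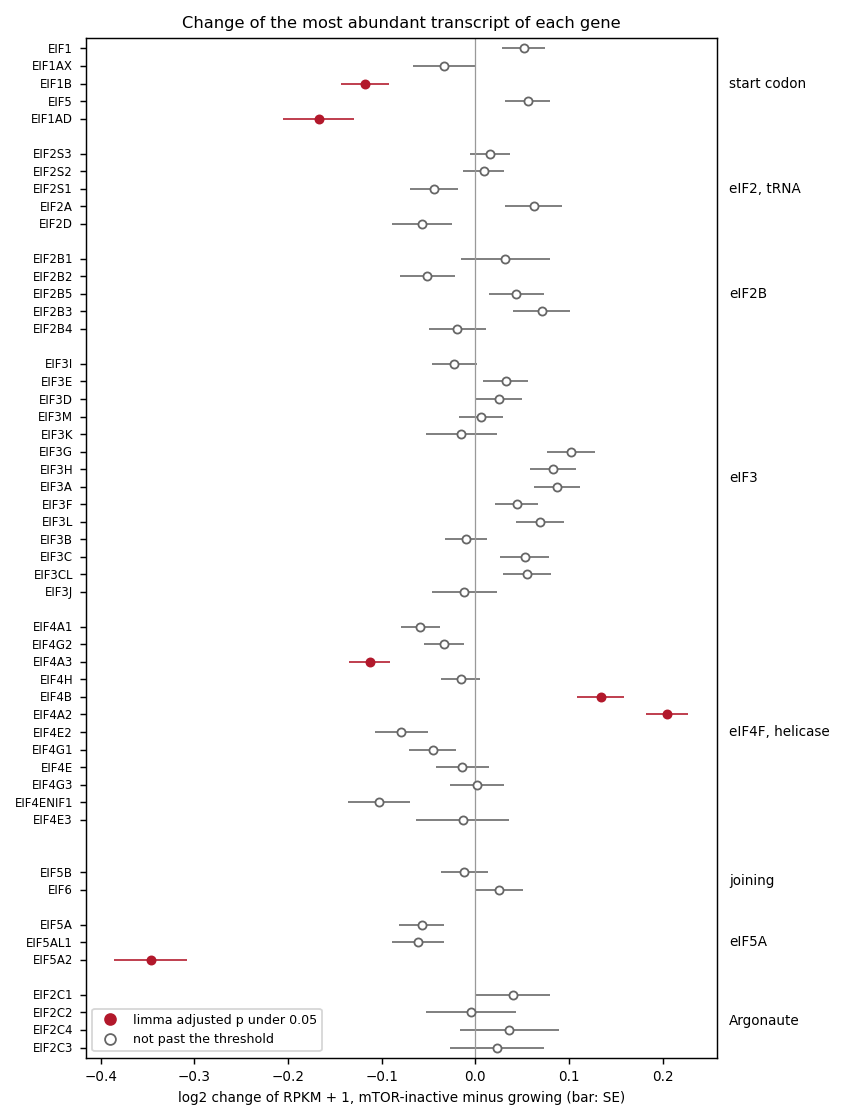
Log2 change of RPKM + 1 (x axis, mTOR-inactive minus growing, with SE bars from limma, n = 2 libraries per condition) for the most abundant transcript of each of the 50 genes tested, grouped by role. Filled points mark the 6 genes whose plotted transcript passed the adjusted threshold, EIF4A2 and EIF4B above 0 and EIF4A3, EIF1B, EIF1AD and EIF5A2 below.

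The members that rose begin with a pyrimidine run in RefSeq annotation, so their start windows are shown beside those of other members. Each window runs from 10 bases before the annotated start of the gene to the 15th transcribed base, 5′ to 3′, and capitals mark the run of C and T that starts with a C at the start itself. The windows are from RefSeq on GRCh38.p14, a later build than that of the deposited files. EIF4B lies on the plus strand at chr12:53006446-53006470, EIF3F at chr11:7987327-7987351 and EIF4A2 at chr3:186783567-186783591, also on the plus strand.
EIF4B: tcatccgggtCTTTTgcgttctctt
EIF3F: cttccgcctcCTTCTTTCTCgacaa
EIF4A2: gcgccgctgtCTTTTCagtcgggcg
The window of EIF4A1 is at chr17:7572815-7572839 on the plus strand, and that of EIF4G2, the first of those listed for this gene, at chr11:10807982-10808006 on the minus strand.
EIF4A1: ggcactccgcCCTagtttctaagga
EIF4G2: tgtcggaagcacttccctaacttgc

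A start of this kind, a C followed by at least 4 bases that are C or T, was looked for in the transcribed strand of the windows, which matched 43 of the 51 member genes. A gene with several windows was counted if any of them had it. It was found in 9 of these 43, or 20.9%, against 6.71% of the matched genes of the mRNA-seq data and 4.07% of all 35116 windows. Among genes of at least 50 RPKM it was found in 7 of 18 matched members and in 131 of 746 genes (17.6%). The 9 members were EIF4A2, EIF4B, EIF2A, EIF3F, EIF3D, EIF2S3, EIF3M, EIF3K and EIF2D. EIF2C2, EIF2S2, EIF3A, EIF3CL, EIF3E, EIF3G, EIF3H and EIF3L were not matched to a window and were not searched. The most abundant transcripts of the 9 members with such a start had a median log2 change of 0.02 after PP242. Of these, 7 were above 0 and 2 below, and 2 were called higher and 0 lower. The other 33 matched members tested had a median of −0.02, with 11 above 0 and 22 below, and 0 were called higher and 4 lower. Over all matched genes tested, those with such a start had a median of 0.01, with 374 of 620 above 0, and 24 were called higher and 31 lower. The remaining matched genes had a median of −0.0068, with 3512 of 7517 above 0, and 260 were called higher and 664 lower. This search was added after the changes of EIF4A2 and EIF4B had been seen, it was not tested, and an annotated start need not be the start used in these cells.

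LARP1 sites were then examined. In each list a site has a position in a RefSeq transcript, a mark for 5’UTR, CDS or 3’UTR, and its reads scaled to the size of the library (RPM, per mapped reads). Those totals were not used here and single sites carry no counting error, and clusters that did not pass the authors' filters are not listed. Under growing conditions 7 of the 50 member genes of at least 1 RPKM had a listed site, where the share over all genes of that level was 10.3%, and under mTOR-inactive conditions 11 had one, where it was 11.2%. In all, 14 members had a listed site in either library and 37 had none. Many listed sites were near the lower end of the lists. With a minimum of 1 RPM, 4 of the 50 members had a site under growing conditions (1.74% over all genes) and 3 under mTOR-inactive conditions (3.84%). Abundant mRNAs give more reads. Among genes of at least 50 RPKM the count was 3 of 25 members in each library, with only EIF4A1 in both. The shares over all genes of that level were 8.00% under growing and 18.8% under mTOR-inactive conditions.

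No member had a 5’UTR site in either library, at any RPM. Among genes of at least 50 RPKM this was 0 of 25 members, where a 5’UTR site was listed for 1.07% of all genes under growing and 2.24% under mTOR-inactive conditions, so that less than 1 such member would have been counted at the same share. It includes EIF3E, EIF3F and EIF3H, which had no listed site at all, and EIF4B, which had only 3’UTR sites of 0.0581 and 0.0388 RPM under growing conditions. Sites of at least 1 RPM lay in the CDS and, for EIF5A and EIF5AL1, in the 3’UTR. Under growing conditions 97.0% of the RPM of these sites was in the CDS, and under mTOR-inactive conditions all of it was. These shares rest on few sites, 2 in the CDS and 2 in the 3’UTR under growing conditions and 3 in the CDS under mTOR-inactive conditions. The share over all mRNA sites was not computed.

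The helicase and scaffold mRNAs carried the highest sites. EIF4G2, which encodes a relative of eIF4G that lacks the eIF4E-binding part, had a site of 1867 RPM in its CDS at nt 1463–1486 of NM_001418.3 under growing conditions, listed on 3 isoforms. Of the 232 distinct mRNA sites with 1 RPM or more in that library it ranked 47. Under mTOR-inactive conditions the only site listed on EIF4G2 was another one in the CDS, at nt 1966–1998, with 0.330 RPM. The mRNA level of EIF4G2 was nearly equal in the conditions, with 107 and 107 RPKM under growing and 104 and 105 RPKM under mTOR-inactive conditions. EIF4G2 lies at chr11:10818597-10830487 on the minus strand of GRCh37.

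EIF4A1 was the only member with a site of at least 1 RPM in both libraries. Under growing conditions its CDS had a site of 937 RPM at nt 722–742 of NM_001416.3, which ranked 75 of 232. Under mTOR-inactive conditions the site in the CDS lay 43 nt downstream, at nt 786–811, and had 10.2 RPM, so that the growing site was 91.5 times as high. The sites did not overlap. Both are listed with equal values on the readthrough transcript SENP3-EIF4A1, a noncoding RefSeq entry that spans both genes. EIF4A1 lies at chr17:7476142-7482324 on the plus strand of GRCh37.

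EIF4A2 showed the reverse pattern. It had no listed site under growing conditions, and a CDS site of 1496 RPM at nt 374–397 of NM_001967.3 under mTOR-inactive conditions, which ranked 48 of 528 on the same scale. The deposited ratio of site RPM to the RPKM of the transcript, times 1000, was 19425 for this site, against 17398 for the growing site of EIF4G2 and 4177 for that of EIF4A1, so the order of EIF4A2 and EIF4G2 was the opposite of that by RPM. The 2 eIF4A paralogs thus had their highest sites in different libraries and at different places of the CDS. With 1 library per condition, condition and library cannot be told apart in these values.

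EIF3I had a CDS site of 78.6 RPM at nt 233–250 of NM_003757.2 under mTOR-inactive conditions and none under growing conditions. The lists also have a T-to-C column, named for the conversion that marks crosslinked 4-thiouridine. At 43.7% of the sites with 1 RPM or more in the growing library, and at 67.2% of those in the mTOR-inactive library, this column was within 1% of a fixed multiple of RPM, 25.8 and 28.3. At the EIF3I site it was at 1.03% of the multiple, while at the other member sites of at least 1 RPM it was at 99.9% to 100.03%. The EIF3I site thus nearly lacked the mark in this column. With a minimum of 50% of the multiple, it dropped out. That left 2 member sites of at least 1 RPM on 2 genes under mTOR-inactive conditions, and 4 under growing conditions. EIF3I lies at chr1:32686678-32710998 on the plus strand of GRCh37.

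EIF5A, the hypusine-containing factor of elongation and initiation, had a 3’UTR site of 43.8 RPM at nt 1288–1307 of NM_001970.4 under growing conditions, which is listed with the same values on 4 isoforms and on EIF5AL1. It was the only site of at least 1 RPM on a member that was placed on the reference, on EIF5A and EIF5AL1 alike. Its sequence is shown, 5′ to 3′, with the uninterrupted run of C and T at its start in capitals. It lies in exon 6 of 6 at chr17:7215715-7215734 on the plus strand of GRCh37, and the same 20 bases are in the single exon of EIF5AL1 at chr10:81273450-81273469, also on the plus strand. A weaker 3’UTR site of EIF5A, at nt 1000–1025 of NM_001970.4 and chr17:7215427-7215452, is shown for comparison. It was the only member site to overlap between the libraries, with 0.0181 RPM in the growing library and 0.0094 RPM in the mTOR-inactive library.
EIF5A site: CTCTCTCCCCgacacatttg
EIF5A weaker site: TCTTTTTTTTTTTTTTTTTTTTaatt
The stronger site begins with a run of 10 pyrimidines and holds 6 T and 9 C in 20 bases. The weaker one holds 23 T and 1 C in 26 bases, a sequence of low complexity. Over the whole transcript the stronger site had no counterpart of any RPM under mTOR-inactive conditions.

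**Figure D4:**
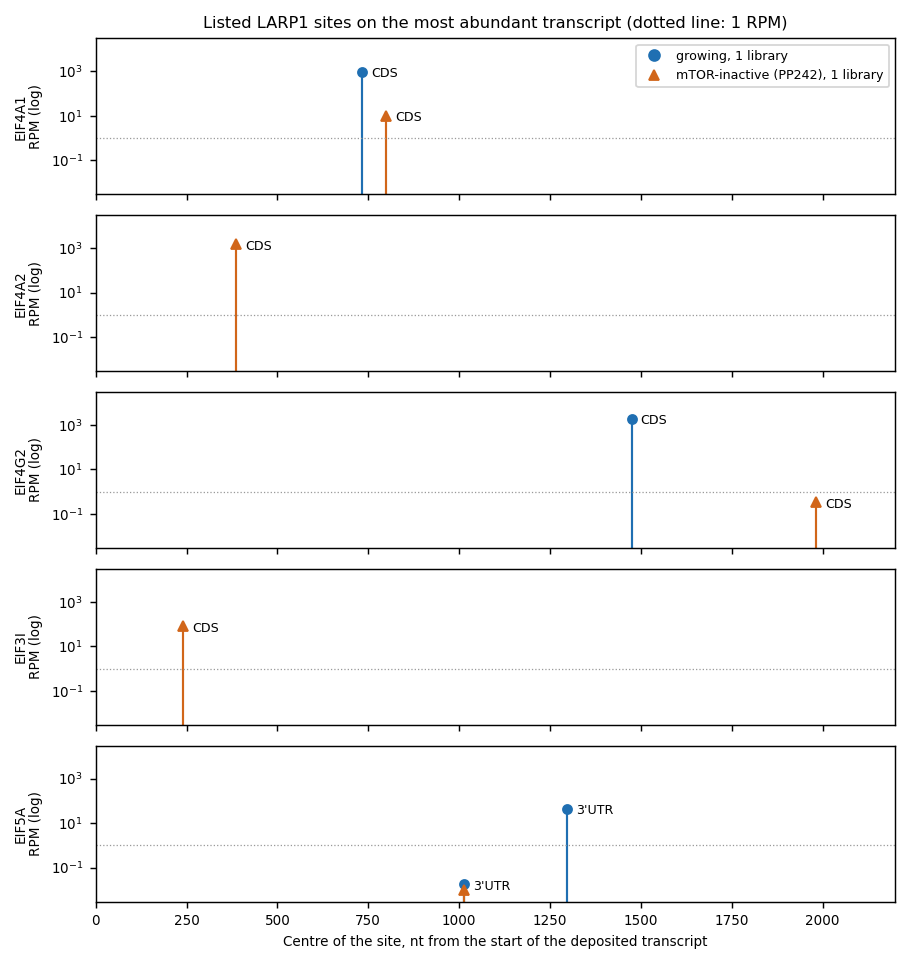
Listed LARP1 sites on the most abundant transcript of 5 genes, by position (x axis, nt from the start of the deposited transcript) and RPM (y axis, log scale), in the growing library (circles) and the mTOR-inactive library (triangles). The region is given beside each point except the mTOR-inactive one of EIF5A, which is in the 3’UTR. The highest sites of EIF4A1, EIF4G2 and EIF5A are in the growing library, those of EIF4A2 and EIF3I in the mTOR-inactive library, and only the weak 3’UTR site of EIF5A is at the same place in both.

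The remaining listed sites were weak. Under growing conditions there were 6 distinct sites below 1 RPM, all in the 3’UTR, with 0.0018 to 0.0581 RPM. Under mTOR-inactive conditions there were 9, of which 8 were in the 3’UTR, with 0.0027 to 0.330 RPM. They lay on EIF2C1, EIF2S1, EIF2S3, EIF3C, EIF3CL, EIF4B, EIF4E, EIF4G2, EIF4H and EIF5A. The T-to-C column was below 1 at 4 of the 6 and 6 of the 9, and many of them had the same values on unrelated genes. The same 3’UTR site on EIF3C and EIF3CL, which are near-identical copies, had 0.0530 RPM on each under mTOR-inactive conditions.

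Regulators of initiation outside the members were described from a list of 23 genes, which holds the eIF2 kinases, the 4E-BPs, the poly(A)-binding protein and its partners and further cofactors. Of their 40 transcripts tested 3 were higher and 5 were lower, where the shares over all transcripts were 3.48% and 6.45%. PPP1R15A, the inducible subunit of the phosphatase that reactivates eIF2, had 13.7 and 12.6 RPKM under growing and 21.0 and 20.4 RPKM under mTOR-inactive conditions, a log2 change of 0.62 ± 0.04 (SE, n = 2 per condition; limma, adjusted p = 0.00177). PPP1R15B, its constitutive counterpart, had 22.3 and 22.8 RPKM under growing and 18.3 and 19.8 RPKM under mTOR-inactive conditions and was lower, with a limma adjusted p of 0.0227, a call that was lost without growing replicate 1, growing replicate 2 or mTOR-inactive replicate 1 (adjusted p = 0.0528 to 0.0798). The 3 isoforms of DDX3X, a helicase that acts with eIF4F, were lower, from 41.8 and 43.0 to 33.6 and 34.1 RPKM for the most abundant one (limma, adjusted p = 0.00295). PAIP2, which keeps PABPC1 from poly(A), and PABPC1 itself, the poly(A)-binding protein, were higher, with log2 changes of 0.17 and 0.09 (limma, adjusted p = 0.0217 and 0.0488). The call for PABPC1 was lost without any one of the 4 libraries, with adjusted p-values of 0.0933 to 0.191, and that for PAIP2 without growing replicate 1 or mTOR-inactive replicate 2, with 0.0808 and 0.0785. EIF4EBP1, which encodes 4E-BP1, was lower, with 81.8 and 78.7 RPKM under growing and 73.4 and 68.3 RPKM under mTOR-inactive conditions (limma, adjusted p = 0.0462). Its call was lost with scaled libraries (adjusted p = 0.0705) and without growing replicate 1, growing replicate 2 or mTOR-inactive replicate 2 (0.0795 to 0.158). In a fit without the mean trend of limma the calls for PABPC1 and EIF4EBP1 were also lost. LARP1 itself had a log2 change of −0.03 (limma, adjusted p = 0.479).

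The LARP1 sites of the regulators included one in a 5’UTR. No regulator had a site of at least 1 RPM under growing conditions, and 4 of 23 had one under mTOR-inactive conditions, where the shares over all genes of at least 1 RPKM were 1.74% and 3.84%. PABPC1 carried a 5’UTR site at nt 154–187 of NM_002568.3 with 1675 RPM, against 0.0377 RPM at the same position under growing conditions. EIF4EBP1 had a 3’UTR site of 296 RPM, and PDCD4, an inhibitor of eIF4A, a CDS site of 94.0 RPM, and neither had a listed site under growing conditions. The CDS site of GIGYF2 had 1.68 RPM and the same values on OVGP1, an unrelated gene.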

How the data were processed

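Linkers were removed and reads were mapped by the authors to the human transcriptome of GRCh37 (hg19) with Bowtie. For mRNA-seq they kept perfect matches, divided reads with several matches evenly and deposited RPKM per RefSeq transcript, with the mean of each condition. For PAR-CLIP they clustered reads, smoothed the clusters, retained clusters with T-to-C reads and deposited RPM per site, the ratio of RPM to RPKM, and a T-to-C column, which the methods leave undescribed and which was handled as a score.

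The mRNA-seq file held 39711 lines, and the 1273 that repeated a transcript were dropped. R 4.3.3 with limma 3.58.1 (lmFit, then eBayes with a mean trend) tested log2(RPKM + 1), leaving out transcripts whose mean was under 1 RPKM. In simulated data for these 21014 transcripts it called 200 of 200 that were changed by 1 on the log2 scale, more than any member. It also called 9 that were not changed. The simulation gave all transcripts the same replicate spread and changed only transcripts above 5 RPKM. It therefore does not show how smaller changes or lower transcripts are called. A site listed on several isoforms was counted once per gene. Figures were drawn in Python 3.11.15. Gene places come from GENCODE annotation of GRCh37, start windows from RefSeq. The members and the lists were chosen with earlier results of these data known. Named are the genes with a site that reached 1 RPM, the transcripts past the threshold, the 5 largest changes in each direction, and the highest and lowest gene of each role. Other genes were named after their values were seen. Alternatives were other pseudocounts, filters, scalings, transcript selections, site minimums, a fit without the mean trend, a replicate block and leaving out each library. No sequence is shown for the CDS sites, whose transcript versions could not be placed on the reference used here.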

Additional observations from a re-analysis of the deposited data

How the results depend on the processing

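The number of member transcripts past the threshold, 10, depended on the processing. It was 0 without a filter on low values, 5 with a minimum of 5 RPKM, 5 with scaled libraries, 5 with 1 transcript per gene, and 2 to 3 without 1 library, where a lone library is assumed to vary like the others. EIF5A2 kept its call in 9 of 10 alternatives and EIF4A2 in 10 of 11, the exception being no filter. EIF4A3 and EIF1B kept theirs in 4 of 11, EIF4B in 6 of 11. Under a replicate block the number was 6, but the deviations of same-numbered libraries had a correlation of 0.040, so the samples share only a number. No transcript past the threshold changed sign. The named transcripts of EIF2B1, EIF2C1, EIF2C3, EIF3I, EIF3J and EIF5B, which were not past it, changed sign in at least 1 alternative, and EIF3G passed with a minimum of 5 RPKM and with the block. In the alternatives run the member median moved from −0.013 to between −0.021 without growing replicate 1 and −0.00076 with scaled libraries. These moves were below the SD of 0.019 of the library medians of the member levels, which is not the spread of this change. For the regulators, 8 transcripts passed, 0 without a filter and 4 to 6 without 1 library.

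With all listed sites, the distinct sites on members numbered 10 under growing and 12 under mTOR-inactive conditions, on 7 and 11 genes. Without sites that have the same values on another gene, 1 site on 1 gene, EIF4G2, remained under growing conditions. The copy of the EIF5A site on EIF5AL1 counted once, a choice made after seeing the data, left 3 sites. Per RPKM of the transcript, 90.8% of the growing signal was in the CDS. Mapped-read totals of the PAR-CLIP libraries were not used, so weak sites could not be told from background. At its usual multiple, a T-to-C value of 1 stood for 0.0388 RPM in the growing and 0.0353 RPM in the mTOR-inactive library. Whether that value counts reads was not tested.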
